A study of Mus musculus with 22 samples.

Results

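The 9 cytosolic heat shock chaperone genes described here were followed through RNA sequencing and ribosome profiling of mouse quadriceps muscle: Hsp90ab1, Hsp90aa1, Hsph1, Hspa8, Hspa4, Dnaja1, Cryab, Hspb1 and Hspb6. They were taken by gene name from the authors' count table, which held all 9 of the 9 names among 6054 genes. No measured value entered that choice of names, although earlier results of these data were known when it was made.

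These genes encode the protein folding machinery of the cytosol. Hsp90ab1 and Hsp90aa1 encode HSP90β and HSP90α, ATP-driven chaperones that hold kinases, steroid receptors and, in muscle, myosin heads in a fold ready for use. Hspa8 encodes HSC70, the constitutive HSP70 that binds new and unfolded chains, Dnaja1 a J-domain protein that loads clients onto it, and Hspa4 and Hsph1 HSP110 proteins that release its nucleotide. Cryab, Hspb1 and Hspb6 encode small heat shock proteins, which bind unfolding proteins without ATP and are abundant in striated muscle at the Z-disc. Heat and unfolded proteins act on many of these genes through heat shock factor 1 and its binding sites in their promoters.

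All animals were C57Bl/6 mice, an inbred strain, and all had been fasted overnight, so the control state here is itself a fasted one. They received vehicle or leucine, a branched-chain amino acid that activates the growth kinase complex mTORC1, by oral gavage, and quadriceps was taken 30 minutes later. There were 5 vehicle and 6 leucine libraries of total RNA, and 5 vehicle and 6 leucine libraries of footprints, the mRNA fragments that ribosomes shield from nuclease. Neither age nor sex nor dose is stated in the labels. Whether each library came from an animal of its own is not in the labels, and p-values then speak only of the spread among these libraries, which may in part be technical.

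The RNA libraries held 15016267 to 30944085 counts and the footprint libraries 21697096 to 48996109. No chaperone had fewer than 369 counts in any library, and counting error is small at such numbers. The column names carry 2 prefixes that the sources do not explain, here called set A (3 vehicle and 3 leucine libraries per assay) and set B (2 vehicle and 3 leucine). All 10 skeletal fibre markers looked for were measured, and none of the 4 erythroid ones was. Of 9 slow fibre markers, Tpm3, Atp2a2 and Actc1 were measured, while Myh7, Tnnt1, Tnni1, Tnnc1, Myl2 and Myl3 were not in the table used here. Leucine RNA library A3 stood apart, with a median correlation of 0.935 with its group, against 0.9575 or more for every other library with its own, and leading RNA values are given with and without it.

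In vehicle muscle the chaperones spanned a wide range of ribosome occupancy. Per kilobase of coding length, footprint levels were highest for Cryab, at 1600 ± 491 CPM (counts per 1000000 counts of the library, SD, n = 5), followed by Hspa8 at 693.1 ± 149, Hspb6 at 503.8 ± 145, Hsp90ab1 at 416.7 ± 93.8 and Hspb1 at 270.4 ± 50.1. Hspa4, Hsph1, Hsp90aa1 and Dnaja1 lay together far below these, between 61.53 and 68.35 CPM per kilobase, and did not differ beyond their SDs. Hspb6 lay within 1 SD of Hsp90ab1, and the SD ranges of Hspa8 and Hspb6 overlapped. These SDs pool sets A and B, between which Hspb6 moved against Hsp90ab1 and Hspa8. Before division by length, mean vehicle footprints in set A and set B were 282.6 and 188.2 CPM for Hspb6. They were 761.6 and 1120 for Hsp90ab1, and 1137 and 1653 for Hspa8. The order of Hspb6 and Hsp90ab1 per kilobase can thus depend on the set. On the same per-length scale, RNA levels followed another order: Hspa8 led at 552.1 ± 158, ahead of Cryab at 267.8 ± 66.3, Hsp90ab1 at 168.5 ± 12.3 and Hspb1 at 121.8 ± 23, and Hsph1 was lowest at 18.55 ± 1.97. The order depended on the length used. Per kilobase of the authors' own transcript lengths, Hsp90ab1 RNA (146 ± 10.6) stood above Cryab RNA (118.7 ± 29.4), and Dnaja1 RNA was lowest at 7.90 ± 1.84, below Hsph1 at 13.73 ± 1.46. On that scale Hspb6 footprints (184.8 ± 53.4) stood below Hsp90ab1 (361 ± 81.2) and beside Hspb1 (187.7 ± 34.8). Dnaja1 footprints (13.03 ± 1.52) then lay below those of Hspa4, Hsp90aa1 and Hsph1, at 37.21 to 49.88. With either length HSP90β exceeded HSP90α in both assays, and the constitutive HSP70 exceeded its J-domain partner. Chaperone genes have pseudogenes and close paralogs, and how reads matching several places were counted is not given, so single members' counts are uncertain.

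All 9 chaperones had more footprints relative to their RNA than the typical gene in vehicle muscle. This was tested gene by gene with edgeR's quasi-likelihood test, Benjamini-Hochberg adjusted over 6054 genes at 0.05, and 37.2% of all genes passed in that direction. The members' median log2 difference, footprints minus RNA, was 1.33, against -0.00 for all genes. The 2 small heat shock proteins Hspb6 and Cryab led. Hspb6 had a log2 difference of 3.17 ± 0.28 (SE), a 9.01-fold excess that ranked 16 of 6054, and Cryab one of 2.76 ± 0.23, 6.78-fold and rank 37. Hsph1 followed with 2.05 ± 0.12 (4.13-fold), then Hsp90ab1 with 1.49 ± 0.14 (2.81-fold), Hspb1 with 1.33 ± 0.16, Hsp90aa1 with 1.05 ± 0.17 and Dnaja1 with 0.90 ± 0.15. The adjusted p of these 7 was at most 0.000127. Hspa4 differed by 0.30 ± 0.07 (adjusted p = 0.00197) and Hspa8 by 0.51 ± 0.20 (adjusted p = 0.038). The Hspa8 call was lost when vehicle RNA library A1, A2 or A3 or vehicle footprint library B1 or B2 was left out, with adjusted p up to 0.0939. It was also lost with upper-quartile scaling. In bulk tissue, fewer cells of a type and less RNA per cell cannot be told apart in the comparisons between treatments and between sets that follow.

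The same excess was present after leucine, where again 9 of 9 chaperones and 37.7% of all genes passed. This comparison was added after the data had been seen. Hspb6 had a log2 difference of 2.38 ± 0.44 in leucine muscle and 3.01 ± 0.27 without RNA library A3. Hsph1 had 1.60 ± 0.15, or 1.75 ± 0.11 without that library, and Cryab 2.47 ± 0.16. Short mRNAs tended to have more footprints relative to RNA: across the 5566 genes with a length in the authors' deposited table, Spearman's rho of the vehicle difference with that length was -0.25, a description over genes that share the same libraries. Among the 848 genes listed with at most 1500 bases, a class that holds all 3 small heat shock proteins, the median was 0.29 and the 90th percentile 1.33. Hspb6 (1325 bases) and Cryab (1185) lay above that percentile and Hspb1 (903) at it, while the other 6 chaperones were longer. The part that length plays in these differences was not tested.

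**Figure D1:**
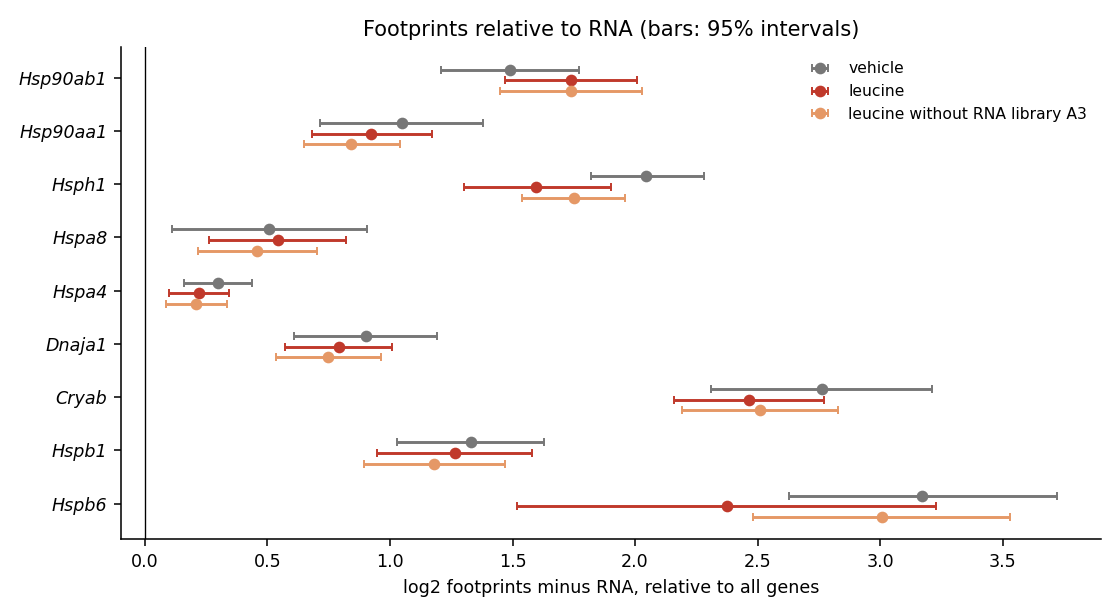
Log2 difference of footprints minus RNA for each chaperone (x axis) in vehicle libraries, in leucine libraries and in leucine libraries without RNA library A3; points are edgeR estimates and bars 95% intervals. All 9 genes lie above 0, from 0.30 for Hspa4 to 3.17 for Hspb6 in vehicle, and the leucine value of Hspb6 moves from 2.38 to 3.01 without the library that stands apart.

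After leucine, Hsp90ab1 had the largest footprint difference of the 9, although none passed the threshold in the comparison of all 11 libraries, where 0.76% of genes (46) did. Hsp90ab1 footprints measured 773, 717 and 795 CPM in the vehicle libraries of set A and 1055 and 1185 in those of set B. The leucine libraries had 1276, 991 and 1028 CPM in set A and 1635, 1699 and 1313 in set B. Within each set, every leucine library was above every vehicle library, while the vehicle libraries of set B lay among the leucine libraries of set A. The log2 change was 0.55 ± 0.17 (95% interval 0.21 to 0.89, 1.46-fold), rank 87 from the top, with an adjusted p of 0.205 in edgeR. With the set as a covariate the change was 0.50 ± 0.09 and passed (adjusted p = 0.037), as it did in DESeq2 (0.55, adjusted p = 0.0407). These settings called 55 and 253 genes in all, against 46. The Hsp90ab1 change was 0.53 within set A and 0.47 within set B, and lay between 0.46 and 0.67 when single libraries were left out. The treatment effect on Hsp90ab1 was not shown to differ between sets (interaction -0.06 ± 0.19, adjusted p = 1).

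Hspa8 footprints shared the layout within sets. They measured 1075, 1112 and 1224 CPM in set A and 1645 and 1661 in set B with vehicle, and 1627, 1417 and 1482 in set A and 1871, 1970 and 1861 in set B with leucine. The vehicle libraries of set B thus lay above every leucine library of set A. Again each set's leucine libraries lay above all of its vehicle libraries, which holds in both sets for 3.85% of genes and for 2 of the 9 chaperones. The change was 0.34 ± 0.14 (adjusted p = 0.341), and 0.32 ± 0.07 with the set as a covariate (adjusted p = 0.0555). Over all 11 libraries, 0 of 9 chaperones had every leucine library above every vehicle library in footprints, against 1.75% of genes. Summed footprints of the 10 skeletal fibre markers had the same layout within sets. In set A they were 195300 to 219700 CPM with vehicle and 254200 to 311200 with leucine, and in set B 184400 to 191600 and 209200 to 236700. All 10 had a positive change, with a median of 0.30. None passed, and 6 had an unadjusted p below 0.05. Their part in the Hsp90ab1 and Hspa8 differences was not tested.

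**Figure D2:**
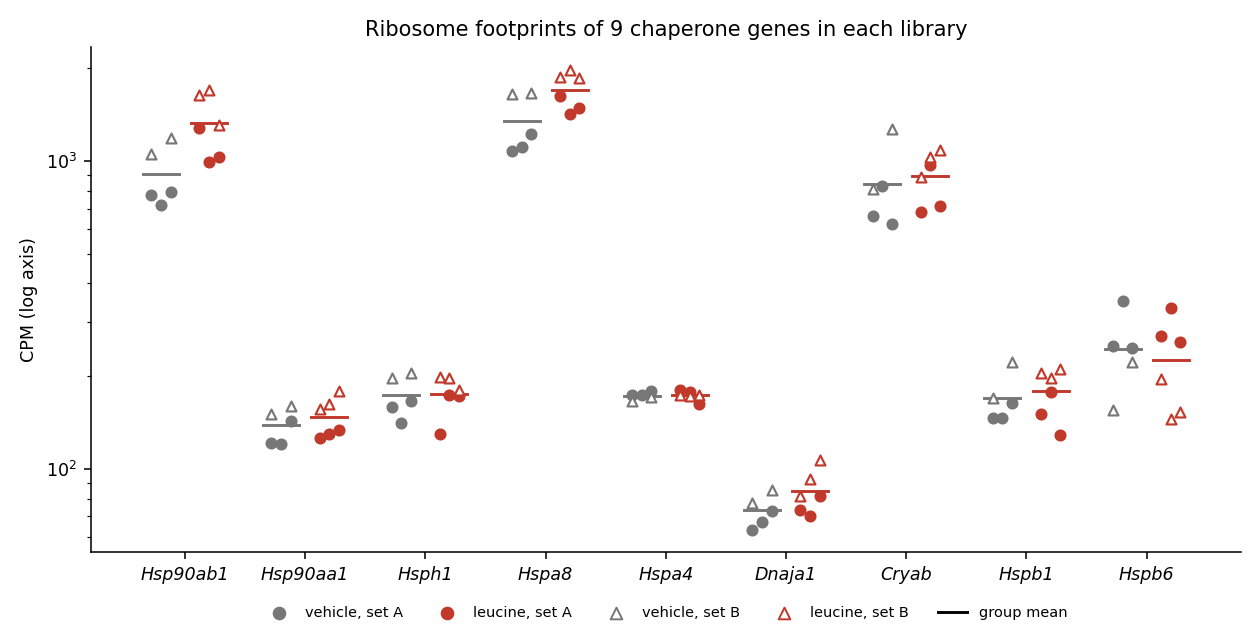
Footprint level in CPM (y axis, log scale) of the 9 chaperones in each vehicle and leucine library, with filled circles for set A, open triangles for set B and a line at the group mean. For Hsp90ab1 and Hspa8 the leucine points of each set lie above the vehicle points of that set, while Hspa4 stays between 162 and 180 in all 11 libraries.

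The other 7 chaperones had smaller footprint changes, and none passed. HSP90α, encoded by Hsp90aa1, had a log2 change of 0.09 ± 0.11, with 139 ± 17.6 CPM in vehicle (n = 5) and 147.7 ± 21.5 in leucine (n = 6). The HSP110 genes had changes of 0.02 ± 0.12 (Hsph1) and 0.00 ± 0.05 (Hspa4), the latter with a 95% interval from -0.10 to 0.11, the narrowest of the 9. Dnaja1 had 0.20 ± 0.11. The small heat shock proteins had 0.09 ± 0.18 (Cryab), 0.07 ± 0.14 (Hspb1) and -0.12 ± 0.24 (Hspb6), the last with an interval from -0.59 to 0.355. Single libraries moved these values: on leaving out one at a time, Cryab ranged from 0.01 without vehicle A3 to 0.29 without vehicle B2, and Hspb1 from 0.02 without leucine B3 to 0.19 without vehicle B2. In all, 8 of 9 changes were positive with a median of 0.09, against a median of -0.01 over all genes, of which 46.2% were positive. Adjusted p lay between 0.205 and 0.984. Without adjustment 2 of the 9 had p below 0.05, as did 731 genes (12.1%). limma-voom called 0 of the 9, but it also called 0 genes in all. The 9 changes come from the same libraries and are not independent of each other. They also carry the set difference, as vehicle had 2 set B libraries and leucine 3. With the set as covariate, Hsph1 had -0.0102, Hspb1 0.0285 and Hsp90aa1 0.0507, while Hspa4 rose to 0.00752 and Hspb6 to -0.0733.

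In RNA, every chaperone had a positive change after leucine, and none passed: adjusted p was 0.999 for each, and 0% of genes were called by edgeR, DESeq2 or limma-voom. The members' median log2 change was 0.29, against -0.00 over all genes, of which 49.4% were positive. The 9 values come from the same 11 libraries and are not independent of each other. Without adjustment 2 of 9 members and 163 genes (2.69%) had p below 0.05.

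Hsp90ab1 RNA measured 370, 368, 384, 321 and 387 CPM with vehicle. With leucine it ranged from 395 to 478, with a median of 441. All 6 leucine libraries thus lay above all 5 vehicle libraries, as in 0.132% of genes (8), and no other chaperone did so over both sets together. The change was 0.28 ± 0.08 (1.21-fold). Hsph1 RNA measured 44.5, 49.7, 54.4, 41.2 and 49.0 CPM with vehicle, and with leucine ranged from 51.0 to 97.8 with a median of 59.7. The highest value was in library A3, the next was 63.5, and only the leucine library at 51.0 fell among the vehicle values. Its change was 0.44 ± 0.15 (1.36-fold), or 0.29 ± 0.09 without library A3.

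Hspb6 RNA, which had the largest value, rested on that library. Its change was 0.65 ± 0.47 with A3 (135.8 CPM, against 22.6 to 45.0 in the other 5 leucine libraries) and 0.03 ± 0.26 without it. The change of Cryab was 0.36 ± 0.17 and 0.32 ± 0.18 without A3. Dnaja1 and Hspa8 each had a change of 0.29, with SEs of 0.14 and 0.19, and 0.34 and 0.37 without A3. Hsp90aa1 had 0.19 ± 0.17, Hspb1 0.11 ± 0.17 and Hspa4 0.06 ± 0.06. The chaperones together took 0.203 ± 0.0533% of RNA counts with vehicle (SD, n = 5) and 0.247 ± 0.045% with leucine (n = 6), and 0.431 ± 0.0924% and 0.475 ± 0.0975% of footprint counts. These shares differed by set. In RNA they were 0.151 to 0.215% in set A and 0.245 to 0.302% in set B. In footprints they were 0.353 to 0.42% and 0.477 to 0.579%. Vehicle had 2 set B libraries per assay and leucine 3, so the group means also carry the set difference.

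**Figure D3:**
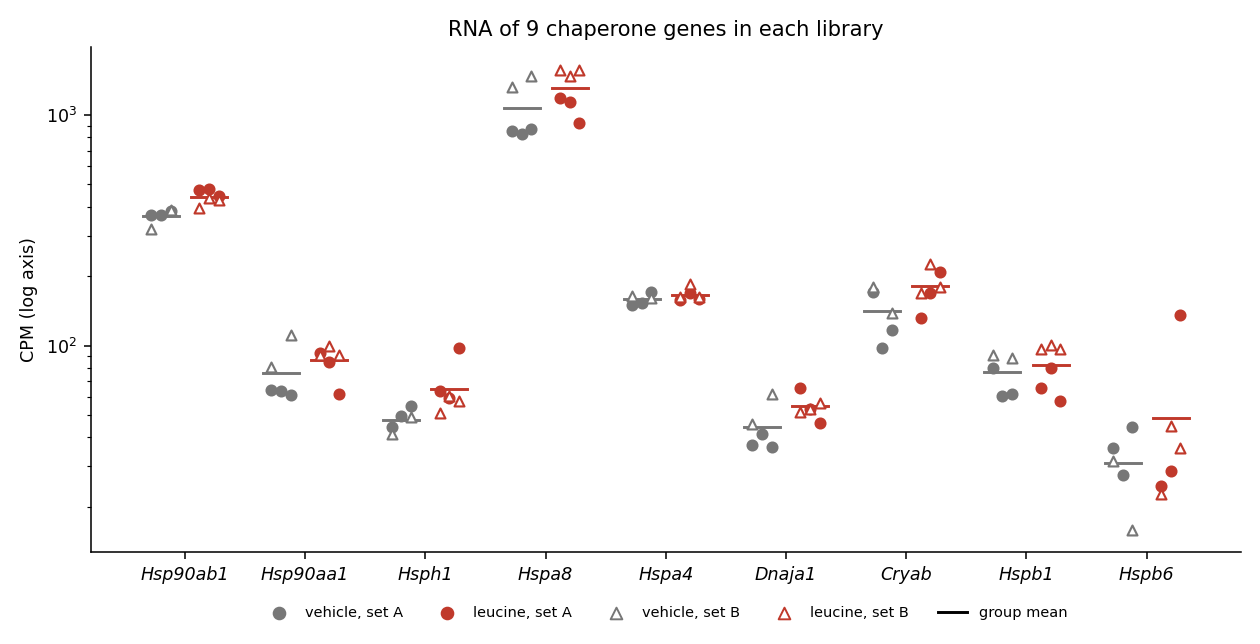
RNA level in CPM (y axis, log scale) of the 9 chaperones in each vehicle and leucine library, with filled circles for set A, open triangles for set B and a line at the group mean. The 6 leucine points of Hsp90ab1 (395 to 478) lie above its 5 vehicle points (321 to 387), and 1 leucine point of Hspb6, at 135.8, stands away from the rest.

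Promoter sequences are shown as a description of these genes, since heat shock factor acts through short repeats of GAA. A link to the RNA changes, none of which passed, was not tested. RefSeq windows of 250 bases before to 50 after a start site (GRCm38.p6, a later build than the mm9 of the authors' processing) were at hand for 5 of the 9 genes: Hsph1, Hspa4, Dnaja1, Hspb1 and Hspb6. They were searched for GAANNTTC and TTCNNGAA, neighbouring units of a heat shock element, each of which reads the same on both strands. Among 32851 windows of the same length, 7.86% held the first, 8.52% the second and 15.1% either. Of the 9 windows of these 5 genes, 5 held at least 1, and these belonged to 4 genes. The shares above are per window, and no share per gene is given. Heat shock genes were chosen by name, so such motifs were likely beforehand. The 2 windows of Hsph1 overlap, as do the 2 downstream windows of Dnaja1, which held no motif. The 9 windows are thus not all separate cases. The stretches before the start are printed with these motifs in capitals, 5′ to 3′ on the gene's strand. Hsph1 is at chr5:149636337-149636399 on the minus strand, Dnaja1 at chr4:40722314-40722381 on the plus strand and Hspb1 at chr5:135887772-135887859 on the plus strand.
Hsph1: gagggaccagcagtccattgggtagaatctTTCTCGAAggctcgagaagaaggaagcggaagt
Dnaja1: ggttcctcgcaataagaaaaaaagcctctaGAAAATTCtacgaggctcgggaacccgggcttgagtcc
Hspb1: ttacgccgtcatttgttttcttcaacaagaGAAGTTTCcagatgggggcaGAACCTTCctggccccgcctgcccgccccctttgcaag

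Hspb6 held 1 motif, in the window of its downstream start, and Hspa4 held none in these letters. Among the 3 printed genes, only Hsph1 had an unadjusted p below 0.05 in RNA, and none passed the threshold, so motif and change are given side by side as descriptions. At the start site, none of the 9 windows of these 5 genes had a C followed by 4 more pyrimidines. That is the start of mRNAs known to be translated under mTORC1 control, and 2.51% of all windows had it. With so low a share, its absence from 9 windows says little. Hsp90ab1, Hsp90aa1, Hspa8 and Cryab had no window and were not examined.

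Footprints relative to RNA, the usual estimate of translational efficiency, were tested as the interaction of assay and treatment over all 22 libraries. None of the 9 chaperones and 0% of genes passed in edgeR. Without adjustment 1 of the 9 and 429 genes had p below 0.05. RNA and footprint changes had the same sign for all of the 9 except Hspb6. In efficiency, Hsp90ab1 had a change of 0.26 ± 0.20 and Hspa8 one of 0.04 ± 0.25. The other 7 changes were negative. Hsph1 had -0.44 ± 0.20 (adjusted p = 0.688), with RNA higher and footprints level, and -0.28 ± 0.16 without RNA library A3. Hspb6 had -0.78 ± 0.55, and -0.15 ± 0.38 without that library. Cryab had -0.28 ± 0.27, Hsp90aa1 -0.11 ± 0.21, Dnaja1 -0.10 ± 0.19, Hspa4 -0.06 ± 0.08 and Hspb1 -0.05 ± 0.23.

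**Figure D4:**
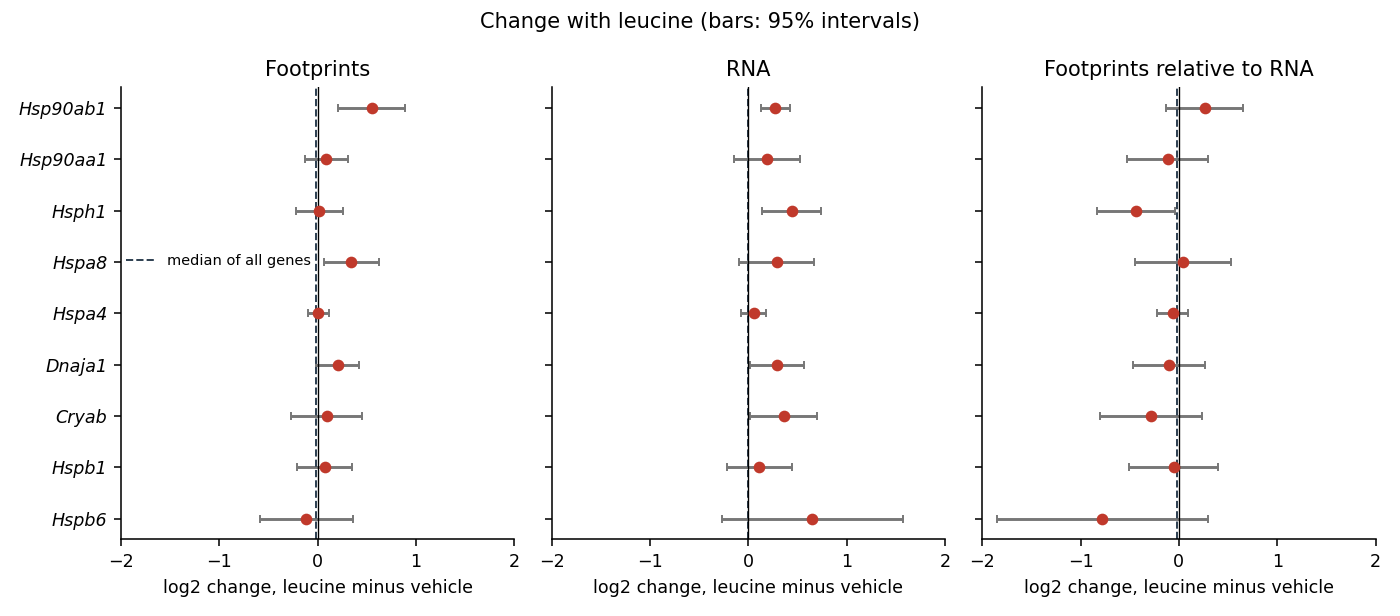
Log2 change, leucine minus vehicle (x axis), of each chaperone in footprints, RNA and footprints relative to RNA; points are edgeR estimates, bars 95% intervals and the dashed line the median of all genes. All 9 RNA points are positive, Hsp90ab1 is the largest footprint change at 0.55, and 7 of 9 points in the right panel are negative.

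The 2 related pairs, HSP90β with HSP90α and HSP110 Hsph1 with its paralog Hspa4, were compared within each library, where library size cancels. These ratios were chosen after the data had been seen, as 4 tests adjusted together. In footprints the ratio of Hsp90ab1 to Hsp90aa1 counts was 6.35, 5.97 and 5.58 in set A and 6.99 and 7.43 in set B with vehicle, and 10.2, 7.64, 7.72, 10.5, 10.5 and 7.31 with leucine. Of the 6 leucine libraries, 5 lay above all vehicle libraries. The mean was 6.46 ± 0.75 (SD, n = 5) with vehicle and 8.97 ± 1.56 (n = 6) with leucine, a log2 difference of 0.46 (exact two-sided permutation p = 0.013, adjusted p = 0.052), which did not pass. With permutations kept within sets, p was 0.015 and the adjusted p 0.03, with differences of 0.50 in set A and 0.37 in set B. In RNA the same ratio was 5.08 ± 1.26 with vehicle and 5.24 ± 1.11 with leucine (exact permutation p = 0.766). Its log2 difference was -0.0073 in set A and 0.264 in set B (exact permutation p = 0.235 within sets). In set B the RNA ratio was 3.98 and 3.48 with vehicle and 4.33, 4.36 and 4.74 with leucine.

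In the HSP110 pair, the larger difference was in RNA. The RNA ratio of Hsph1 to Hspa4 was 0.30 ± 0.0291 with vehicle and 0.393 ± 0.113 with leucine, a log2 difference of 0.36 (exact two-sided permutation p = 0.026, adjusted p = 0.052; p = 0.005 and adjusted p = 0.02 within sets). With 200 splits within sets, no p below 0.005 was possible. Leucine RNA library A3 had the highest ratio, 0.614, and without it the difference was 0.22. On leaving out single libraries, the adjusted permutation p over both sets together ranged from 0.0317 to 0.219. In footprints the ratio was 1.01 ± 0.174 with vehicle and 1.02 ± 0.158 with leucine (exact permutation p = 0.937). Whether the 2 assays differ in these ratios was not tested.

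**Figure D5:**
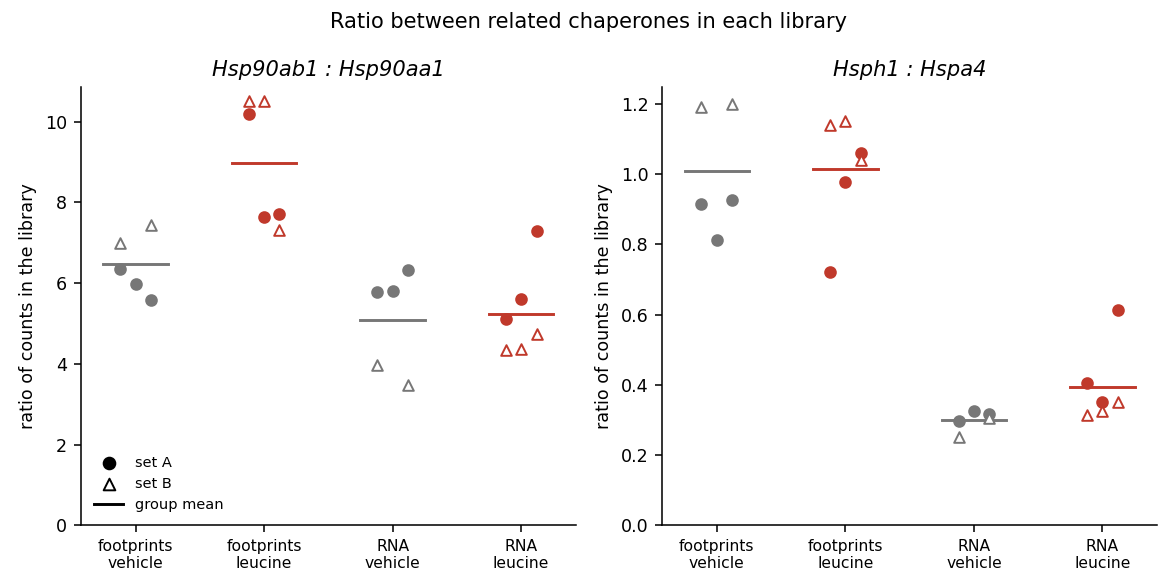
Ratio of Hsp90ab1 to Hsp90aa1 counts and of Hsph1 to Hspa4 counts (y axes, from 0) in each library, by assay and treatment, with circles for set A, triangles for set B and a line at the group mean. The HSP90 ratio in footprints is higher with leucine (8.97 against 6.46) and the HSP110 ratio in RNA is higher with leucine (0.393 against 0.30).

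More chaperones passed the threshold between the sets than between the treatments. With treatment in the model, 7 of the 9 chaperones had more footprints in set B (11.7% of all genes passed in that direction) and 1 had fewer (12.2% of genes). Hsp90ab1 was higher by 0.52 ± 0.09, Cryab by 0.44 ± 0.14, Hspa8 by 0.43 ± 0.07 and Hspb1 by 0.40 ± 0.09, and Hsp90aa1, Hsph1 and Dnaja1 by 0.29 to 0.32, with adjusted p between 0.00169 and 0.0331. The Cryab call was lost without vehicle library A1, A3 or B2 or leucine library A1, A3, B2 or B3, and its change was 0.30 without vehicle B2. Hspb6 was lower in set B by a log2 difference of -0.70 ± 0.14 (adjusted p = 0.00409). It measured 247 to 351 CPM in set A and 145 to 222 in set B, with no overlap. Summed footprints of the 3 measured slow fibre markers also did not overlap, at 8035 to 19020 CPM in set A and 4040 to 5953 in set B, and their part in the Hspb6 difference was not tested. The 3 did not move alike: Actc1 was lower in set B by a log2 difference of -1.62 ± 0.28 and Tpm3 by -0.42 ± 0.12, while Atp2a2 had 0.41 ± 0.30 and did not pass (adjusted p = 0.353). Hspa4 did not differ detectably (-0.03 ± 0.05, adjusted p = 0.755).

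In RNA, 3 chaperones were higher in set B, where 9.02% of genes were higher and 9.8% lower. These were Hspa8 by 0.60 ± 0.08 (adjusted p = 0.0046), Hspb1 by 0.48 ± 0.10 (adjusted p = 0.0124) and Hsp90aa1 by 0.40 ± 0.12 (adjusted p = 0.0457). The Hsp90aa1 call was lost on leaving out any single library other than leucine A1 and A2, and its change was 0.28 without vehicle B2. Hsp90ab1 RNA had a difference of -0.12 ± 0.06 between sets (adjusted p = 0.202), with the opposite sign to its footprints. What the sets stand for is not given, so their differences cannot be assigned to animals, days or libraries. The leucine change was tested for a difference between sets and 0 of 9 chaperones and 0% of genes passed in either assay with edgeR, while 176 genes in footprints and 110 in RNA had p below 0.05 unadjusted. DESeq2 called 4 and 2 genes and none of the 9. Dnaja1 RNA had an interaction of -0.52 ± 0.22 (adjusted p = 0.999), and -0.64 ± 0.19 without leucine library A3 (adjusted p = 0.16). The interaction of Hspb6 RNA changed sign with that library, from -0.26 ± 0.91 to 0.97 ± 0.52 without it (adjusted p = 0.374).

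Across the 11 libraries of an assay, some chaperones followed each other closely. These correlations of log2 CPM are descriptions, since the libraries share treatment and set. In footprints, r was 0.956 between Hsp90ab1 and Hspa8 and 0.904 between Hsp90aa1 and Dnaja1, and after the group and set means had been removed it was 0.592 and 0.806. In RNA, Hsp90aa1 and Hspa8 had 0.904, or 0.888 after that removal. Hsp90ab1 and Hsph1 had 0.732 in RNA but 0.166 after removal of the means, and without leucine library A3 they had 0.929 and 0.744. Hspb6 ran against Hsp90aa1 in footprints (r = -0.843), and against it less after removal of the means (-0.336).

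Nearest genes were taken from correlations with treatment and set differences left in, and not after their removal. Of all genes, the one nearest to Hsp90ab1 in footprints was St13 (r = 0.968), which encodes a cochaperone that joins HSP70 to HSP90. St13 was also among the 3 nearest to Hsp90aa1 in RNA (0.961). For 7 of the others, the footprint neighbours in first place were Ccdc25 for Hsp90aa1 (0.97), Cap2 for Hspa8 (0.982), Cbr4 for Hspa4 (0.847), Tmed2 for Dnaja1 (0.946), Slc30a7 for Cryab (0.902), Cuedc1 for Hspb1 (0.936) and Tsr3 for Hspb6 (0.954). In RNA the nearest genes were Gdap2 for Hsp90ab1 (0.891), Hiatl1 for Hsp90aa1 (0.985), Hnrnpa2b1 for Hsph1 (0.979), P4ha1 for Hspa8 (0.97), Arhgap24 for Hspa4 (0.825), Fbxo18 for Dnaja1 (0.892), D0H4S114 for Cryab (0.937), Ndufa13 for Hspb1 (0.971) and Pdk2 for Hspb6 (0.959). Most of these RNA neighbours depended on leucine library A3. Without it, first place changed for 7 of the 9 chaperones, and only Hiatl1 (0.983) and Hnrnpa2b1 (0.938) kept it. P4ha1 (0.968), Ndufa13 (0.963) and D0H4S114 (0.928) were then among the 3 nearest, while Gdap2, Arhgap24, Fbxo18 and Pdk2 were not. Eef2 took first place beside Hsp90ab1 (0.933) and Hsph1 the next.

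Of 62 measured genes on 7 other chaperone lists, 0 were called after leucine in footprints, RNA or efficiency. Over all genes 0.76% were called in footprints and 0% in RNA and efficiency, so a count of 0 does not set these lists apart. Among the 20 HSP90 co-chaperones, all measured, 15 footprint changes were positive, with a median of 0.06. Fkbp5 and Fkbp4, which encode immunophilins of HSP90 receptor complexes, had 0.32 ± 0.14 and 0.24 ± 0.14, and Cdc37l1, a relative of the kinase co-chaperone CDC37, had -0.18 ± 0.09. In RNA, Ptges3, which encodes p23, had 0.25 ± 0.08 (adjusted p = 0.999), the HSP70-HSP90 adaptor Stip1 0.24 ± 0.16 and the muscle methyltransferase Smyd1, a partner of HSP90 and myosin, -0.14 ± 0.11. In efficiency, Ptges3 had -0.26 ± 0.12, Cdc37l1 -0.25 ± 0.12 and Smyd1 0.26 ± 0.15.

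Of 11 HSP70 co-chaperones and exchange factors, 9 were measured. St13 footprints had a change of 0.36 ± 0.11 (adjusted p = 0.188), which like that of Hsp90ab1 passed with the set as a covariate (adjusted p = 0.037) and in DESeq2 (adjusted p = 0.0336). Sil1, an exchange factor of the endoplasmic reticulum, had 0.23 ± 0.09 and the cytosolic exchange factor Bag1 -0.22 ± 0.09. In RNA, Bag3, the partner of small heat shock proteins, had 0.55 ± 0.45, Bag2 0.14 ± 0.11 and Bag5 0.07 ± 0.08. Their efficiency values were -0.61 ± 0.47 for Bag3, -0.16 ± 0.09 for Bag5 and 0.24 ± 0.19 for Sil1.

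Of 16 J-domain partners, 13 were measured, and 9 had positive footprint changes and 11 positive RNA changes. In footprints Dnajb12 had 0.25 ± 0.15, the ribosome-bound Dnajc2 0.23 ± 0.12 and the endosomal Dnajc13 -0.10 ± 0.07. In RNA Dnajb5 had 0.21 ± 0.13, Dnajb12 0.16 ± 0.16 and Dnajc7 0.13 ± 0.07. Efficiency was -0.28 ± 0.20 for Dnajb5, -0.26 ± 0.25 for Dnaja4 and -0.08 ± 0.11 for Dnajc7.

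Among other small heat shock proteins 3 of 8 were measured. Hspb2 had 0.20 ± 0.12 in footprints and 0.14 ± 0.15 in RNA, Hspb3 -0.13 ± 0.11 and -0.06 ± 0.21, and Hspb8 0.01 ± 0.13 and -0.09 ± 0.24, with efficiencies of 0.05, -0.08 and 0.09. Of 9 other HSP70 and HSP110 genes only Hspa12b and Hspa13 were measured, and the heat-inducible Hspa1a and Hspa1b are not analysed here. Hspa12b had 0.13 ± 0.08 in footprints, -0.24 ± 0.14 in RNA and 0.35 ± 0.16 in efficiency (adjusted p = 0.688). Hspa13 had 0.03 ± 0.08, 0.05 ± 0.13 and -0.02 ± 0.16.

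All 7 mitochondrial chaperones were measured, with 5 positive footprint changes. The chaperonin pair Hspe1 and Hspd1 had 0.21 ± 0.07 (adjusted p = 0.275) and 0.18 ± 0.09 in footprints, and the mitochondrial HSP70 Hspa9 had 0.13 ± 0.10. In RNA Hspd1 had 0.08 ± 0.14, Dnaja3 -0.07 ± 0.08 and Trap1, the mitochondrial HSP90, -0.06 ± 0.06. Efficiency was 0.22 ± 0.13 for Hspe1, 0.08 ± 0.09 for Trap1 and 0.08 ± 0.15 for Hspa9. Of 13 heat shock factors and stress-induced genes, 8 were measured, with 4 positive changes in each assay. Hsbp1, which binds heat shock factor 1, had 0.14 ± 0.13 in footprints and 0.13 ± 0.08 in RNA. The stress-induced Atf3 had -0.15 ± 0.33 and -0.40 ± 0.29, Fos footprints -0.14 ± 0.37 and Hsf2 RNA 0.10 ± 0.07. Efficiency was -0.10 ± 0.10 for Hsf2, 0.18 ± 0.35 for Jun and 0.23 ± 0.47 for Atf3.

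In the authors' deposited table of edgeR results, Hsp90ab1 footprints had a log2 fold change of 0.56 with a p of 0.00202 and an FDR of 0.156, and none of the 9 chaperones had an FDR below that in either assay. For RNA the authors' deposited table gave Hsp90ab1 0.28 (p = 0.0365), Hsph1 0.45 (p = 0.00946) and Cryab 0.37 (p = 0.0445), each with an FDR of 1.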

How the data were processed

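Total RNA and ribosome footprints of quadriceps were sequenced after ribosomal RNA depletion with small RNA library kits, per the labels' protocols. Footprints came from crude polysomes digested with RNase, with monosomes collected through sucrose. Bowtie, edgeR and genome build mm9 are named in the submitters' processing notes, without versions in the sources used here. The authors deposited whole-number counts per gene for 22 libraries, of which all 22 columns were used and 0 belonged to other samples. A deposited edgeR table for each assay holds log2 fold changes, p-values and gene lengths, per the file headers, and serves here only as description in sentences that name it. No count lies below 129, so the table appears to hold abundant genes only. Columns could be matched to groups by name, with no replicate number in it, and the number in a library's name is only its place among the columns of that group and set.

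Counts were fitted in R 4.3.3 with edgeR 4.0.16 (TMM factors, filterByExpr, which removed 0 genes, robust quasi-likelihood fits, Benjamini-Hochberg over all 6054 genes, threshold 0.05). CPM use the TMM-scaled library size, so changes are relative to other genes and a change in total RNA or footprints cannot be seen. Values after ± are SEs for log2 changes and SDs for levels, and 95% intervals are normal ones from the SE. DESeq2 1.42.0, limma 3.58.1 with voom, other scalings and filters, the set as covariate, single sets and single libraries left out were alternatives. Coding lengths came from GENCODE vM21 transcripts matched by RefSeq accession in place of proteins. Correlations used log2 CPM with a prior count of 1. The fits were also run on simulated counts with a fixed spread and, in the treatment comparisons, no set difference. That run cannot show how they behave with set differences or a library that stands apart. The 9 genes, the other lists and the tests were chosen with earlier results of these data known. Named genes are the 9, the 3 of each other list with the smallest p in each leucine comparison, and the gene nearest to each of the 9 in each assay, or near to more than 1; the footprint neighbour of Hsph1 is not reported here.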

Additional observations from a re-analysis of the deposited data

Results flagged for a closer look

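In 2 of the 36 combinations of gene and group that were checked, 1 library lay far from the others of its group, and chance alone flags about 1 in 20 such groups. Both were leucine RNA library A3. Hsph1 measured 97.8 CPM there, with a gap to the next library of 0.734 of the group's range, above Dixon's critical value for 6 libraries. Hspb6 measured 135.8 CPM, with a gap of 0.802 of the range. The same library had the lowest correlation with its group, and 4 chaperones had their lowest leucine RNA values in it: Hsp90aa1 at 61.4 CPM, Hspb1 at 57.6, Dnaja1 at 46.3 and Hspa8 at 924.9. In it the summed RNA of the 3 measured slow fibre markers was 2889 CPM, within the 620.6 to 3489 of the leucine group, and a part of these markers in the 2 values was not tested.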

How the results depend on the processing

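No paired analysis was possible because the column names carry no replicate number, so libraries cannot be matched across groups by label. Of 2852 recomputed values, 2727 kept their direction and side of the threshold. The number of chaperones called in footprints after leucine moved from 0 to 1 (Hsp90ab1) in DESeq2 and with the set as covariate, where 253 and 55 genes were called in all, against 46, and 0 with limma-voom, with upper-quartile factors or on leaving out most single libraries. The HSP90 ratio in footprints passed with permutations within sets (0.435), and ranged from 0.411 to 0.517 on leaving out single libraries, passing without leucine B3. The HSP110 ratio in RNA passed within sets (0.376) and without leucine B1 or B2, ranging from 0.222 to 0.415. The uncalled HSP110 footprint ratio was -0.0308 within sets and ranged from -0.0609 to 0.108, and the uncalled HSP90 RNA ratio from -0.0659 to 0.149.

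The sign reversed otherwise only for log2 changes that passed no test in either setting, and the cause was not tested. With upper-quartile factors the footprint values were -0.0109 for Hsph1, -0.0212 for Hspa4 and -0.021 for Hspb8, and the Hspa4 set difference 0.00292. With the set as covariate Hsph1 had -0.0102 and Hspb8 -0.0273. In set A alone footprints were -0.0194 for Hspa4, 0.0204 for Hspb6, -0.00212 for Hspb8, -0.007 for Hsbp1, 0.0286 for Atf3 and 0.0678 for Fos, and RNA 0.0129 for Trap1 and 0.00865 for Atf3. In set B alone footprints were -0.0568 for Hsph1, -0.053 for Cryab, -0.055 for Hspb8, -0.000358 for Hspa13 and -0.0424 for Hspa9. RNA there was -0.032 for Hsp90aa1, 0.0254 for Hspa12b, -0.0357 for Hspa13 and 0.0151 for Dnaja3. Efficiency was 0.126 for Hsp90aa1, 0.202 for Dnaja1, -0.000129 for Hspb2, 0.0289 for Hspa13, -0.054 for Hspa9 and -0.0917 for Jun.

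On leaving out single libraries, footprint changes ranged from -0.0487 to 0.0973 for Hsph1, -0.00926 to 0.0294 for Hspa4, -0.261 to 0.0491 for Hspb6, -0.0562 to 0.119 for Hspb8, -0.00447 to 0.102 for Hspa13, -0.349 to 0.0275 for Atf3 and -0.361 to 0.0457 for Fos. RNA changes ranged from -0.193 to 0.0855 for Hspb8, -0.188 to 0.0605 for Hspb3, -0.00636 to 0.13 for Hspa13, -0.109 to 0.696 for Bag3 and -0.00908 to 0.15 for Hspd1. Efficiency ranged from -0.106 to 0.129 for Hspa8, -0.136 to 0.0601 for Hspb1, -0.0981 to 0.2 for Hspb8, -0.211 to 0.0512 for Hspb3, -0.0465 to 0.127 for Hspb2, -0.113 to 0.0403 for Hspa13, -0.758 to 0.053 for Bag3 and -0.0267 to 0.332 for Jun.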
